A study of Mus musculus with 6 samples.

Results

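The Egr and Nr4a factors are transcription factors that T cells switch on within minutes of receptor signalling, and the Nab proteins are corepressors that bind the Egr factors. The set described here holds 8 genes chosen by name: Egr1, Egr2 and Egr3, Nr4a1, Nr4a2 and Nr4a3, and Nab1 and Nab2. All 8 have a row among the 15445 genes of the deposited count table, and all 8 passed the filter that left 12987 tested genes. Egr3 passed it through its CD25-low libraries alone. The samples are CD4+ T cells with a transgenic receptor for lymphocytic choriomeningitis virus, sorted from C57BL/6 spleens at day 5 of that infection. The sort separated CD25-high from CD25-low cells, with 3 libraries of each, numbered 1 to 3. CD25 is a subunit of the receptor for interleukin-2. The cells of both groups carried Thy1.1 and CD4 as the other sort markers, and both came from infected mice, so no uninfected or resting cells enter the comparison. The labels name neither the receptor transgene nor the age of the mice, and do not say whether libraries came from separate animals or pools. A p-value here reflects library-to-library spread, part of which may be technical.

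Egr1, Egr2 and Egr3 carry zinc fingers that bind GC-rich DNA. Signals through ERK and serum response factor induce Egr1, and calcium signals through NFAT add to the induction of Egr2 and Egr3. In T cells Egr2 and Egr3 are known for restraining activation and for a part in anergy, and they are described as favouring follicular helper cells through Bcl6. Nr4a1 (Nur77), Nr4a2 (Nurr1) and Nr4a3 (Nor1) are orphan nuclear receptors that act without a known hormone, and a reporter of Nr4a1 is widely used to read receptor signal strength. They are known for promoting regulatory T cell identity and tolerance, and, in chronic stimulation, exhaustion. Nab1 and Nab2 have no DNA-binding domain of their own and repress through the Egr factors they bind. Nab2 is itself described as an Egr-induced gene, which closes a feedback loop.

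The promoters of these genes are printed because CArG boxes and cyclic AMP response elements are known routes by which immediate early genes are induced. The search covered 10 RefSeq promoter windows (GRCm38.p6, the assembly of mm10) of 6 of the 8 members. Each window ran from 250 bases before to 50 bases after a start. Windows of Egr1 and Egr3 were not searched, and their absence is no evidence that these genes lack an annotated start. Both strands were searched for TGACG, the core of the cyclic AMP response element, for the CArG box that serum response factor binds, and for the Egr site GCGNGGGCG. Egr2 has 5 annotated windows, of which 3 overlap, and the first of those 3 is shown with the single windows of the Nr4a genes. Capitals mark the matches.
Egr2, chr10:67537619-67537918, plus strand: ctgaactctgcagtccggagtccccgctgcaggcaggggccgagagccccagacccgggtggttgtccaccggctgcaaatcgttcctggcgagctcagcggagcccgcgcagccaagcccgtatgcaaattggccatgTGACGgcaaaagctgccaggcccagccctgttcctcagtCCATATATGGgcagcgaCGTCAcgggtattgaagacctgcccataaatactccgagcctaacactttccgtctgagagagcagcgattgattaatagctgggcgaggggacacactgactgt
Nr4a1, chr15:101266596-101266895, plus strand: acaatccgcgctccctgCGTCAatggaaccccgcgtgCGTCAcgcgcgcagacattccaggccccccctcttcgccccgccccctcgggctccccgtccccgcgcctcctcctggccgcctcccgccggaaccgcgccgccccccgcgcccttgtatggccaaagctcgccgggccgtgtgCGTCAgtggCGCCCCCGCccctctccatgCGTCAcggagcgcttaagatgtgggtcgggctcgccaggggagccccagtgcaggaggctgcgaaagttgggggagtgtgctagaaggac
Nr4a2, chr2:57123954-57124253, minus strand: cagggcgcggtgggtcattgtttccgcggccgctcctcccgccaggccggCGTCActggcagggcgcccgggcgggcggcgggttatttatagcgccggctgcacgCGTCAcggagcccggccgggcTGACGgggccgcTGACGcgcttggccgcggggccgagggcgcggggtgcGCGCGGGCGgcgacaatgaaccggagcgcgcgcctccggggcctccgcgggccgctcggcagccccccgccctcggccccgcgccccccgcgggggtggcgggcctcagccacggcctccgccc
Nr4a3, chr4:48045055-48045354, plus strand: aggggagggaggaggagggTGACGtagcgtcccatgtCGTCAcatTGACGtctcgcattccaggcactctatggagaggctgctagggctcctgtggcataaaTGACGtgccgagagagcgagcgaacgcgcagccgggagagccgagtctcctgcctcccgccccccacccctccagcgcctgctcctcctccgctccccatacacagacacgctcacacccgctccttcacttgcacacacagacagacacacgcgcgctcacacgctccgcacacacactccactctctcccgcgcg

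The Egr2 window held a CArG box at position -72 from the start and 2 copies of TGACG or its reverse complement, at -111 and -55. A CArG box was present in 1.63% of all 32851 RefSeq promoter windows, and in 4 of the 5 Egr2 windows, of which 3 overlap and share a box. Each Nr4a window held 4 copies of TGACG and no CArG box. TGACG stood at least once, on either strand, in 20.8% of all windows, and the share with 4 copies was not counted. The Egr site GCGNGGGCG stood once in the windows of Nr4a1 (-60) and Nr4a2 (-74), and at least once in 5.55% of all windows. The full response element TGACGTCA (1.79% of all windows, and it contains TGACG) and the Nr4a response element AAAGGTCA (1.51%) matched in 0 of the 10 member windows. These matches describe the letters and do not show that a factor binds there. They leave out Egr1 and Egr3, whose windows were not searched.

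Library totals ranged from 16787233 to 23567066 counts. Il2ra, which encodes CD25, was the check on the sort. It had 432.4 to 1536 CPM (counts scaled to a common library size with TMM factors) in CD25-high libraries and 20.7 to 35.7 CPM in CD25-low libraries. All 10 CD4+ T cell markers had a row, with summed levels of 3990 to 4180 CPM in CD25-high and 4450 to 5570 CPM in CD25-low libraries. Of 8 B cell markers 3 had a row, with sums of 2.09 to 4.95 CPM in CD25-high and 2.13 to 4.73 CPM in CD25-low libraries, of which Cr2 was the most abundant in 5 of the 6 libraries and Cd79b in CD25-high library 3, while Cd79a, Ms4a1 and Pax5 had none. The 6 of 12 myeloid markers with a row summed to 27.6 to 88.9 CPM in CD25-high and 13.2 to 42.9 CPM in CD25-low libraries. By group mean Itgam, which activated T cells can also carry, was the most abundant of them, followed by Cd68. In CD25-low library 1 Cd68 (5.2 CPM) stood above Itgam (5.03 CPM). Lyz2 stayed at or below 0.724 CPM and Cd14 and Adgre1 had no row. Of 5 natural killer cell markers 2 had a row (Eomes and Klrb1c, 0.426 to 4.59 CPM in CD25-high and 0.869 to 3.01 CPM in CD25-low libraries), and of 6 erythroid and platelet markers 2 (Alas2 and Ppbp, 2.27 to 2.99 CPM in CD25-high and 2.07 to 4.1 CPM in CD25-low libraries). Cd8b1, at 3.51 to 5.33 CPM in CD25-high and 1.59 to 2.32 CPM in CD25-low libraries, was the only CD8 marker with a row. No marker gene of any of these lists passed edgeR's test with the group as the only term, 5 had an unadjusted p under 0.05 (as did 11.1% of all tested genes), and DESeq2 called 1 (Trbc1). With the replicate number as a block, a fit that compares libraries of the same number, 4 were called: the receptor chains Cd3d, Cd3g and Trbc1 fell (log2 fold changes -1.01, -0.86 and -0.89), and Itgam rose (1.57 ± 0.23 on the log2 scale, adjusted p 0.0013), from 21.1, 77.2 and 71.6 CPM in CD25-high and 5.03, 26.3 and 32.1 CPM in CD25-low libraries. Over all genes, 4.63% were called with that block and 2.44% by DESeq2. Itgam shares 3450 exonic bases with Gm49368 on the same strand, which has no row, so its count is uncertain. The Alas2 count is uncertain too, since 311 of its exonic bases overlap Apex2 on the opposite strand (391 to 554 reads per library). The marker genes' part in the results below was not tested.

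Egr2 was far lower in CD25-high cells. It stood at 3.06, 2.77 and 5.25 CPM in CD25-high libraries 1, 2 and 3, against 40.8, 49.3 and 54.2 CPM in CD25-low libraries 1, 2 and 3. The groups did not overlap, and the lowest CD25-low library stood well above the highest CD25-high one. Its mean was 3.69 ± 1.35 CPM over CD25-high libraries, against 48.1 ± 6.77 CPM over CD25-low ones (SD, n = 3 each), on 199 and 3214 reads in all. Its log2 fold change was -3.70 ± 0.33 (SE; 95% interval -4.42 to -2.98), which puts CD25-low cells 13.0-fold above CD25-high cells. EdgeR's quasi-likelihood test, adjusted by Benjamini-Hochberg over 12987 genes, gave 0.00103, and Egr2 ranked 4 among all genes by p. In bulk RNA, fewer cells that express a gene and less RNA per cell cannot be told apart. The call held with any library left out (adjusted p 0.00135 to 0.012). Egr2 (ENSMUSG00000037868) occupies bases 67535475 to 67542188 of chromosome 10 on the plus strand (mm10), and no annotated exon of another gene overlaps its exons.

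**Figure D1:**
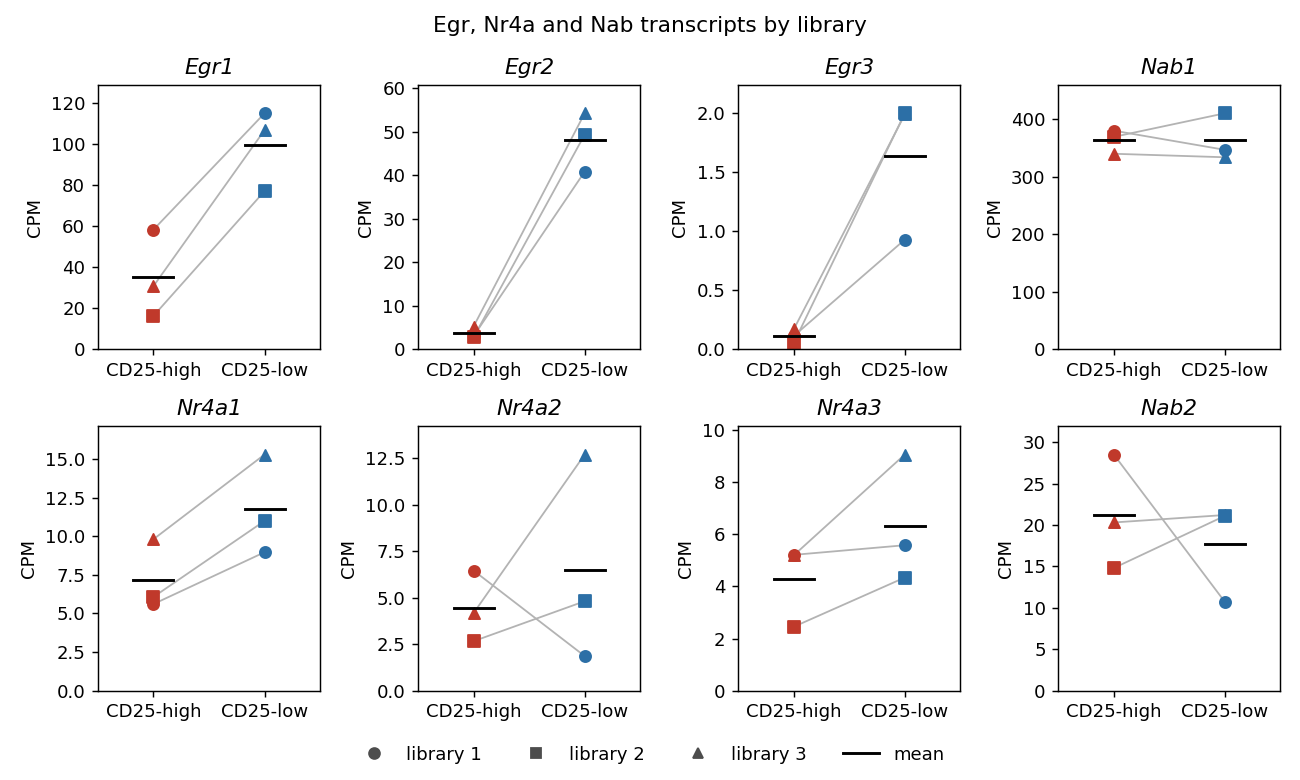
Levels of the 8 members in each library, as TMM-scaled counts (CPM, linear axes from 0, one scale per gene), with CD25-high libraries in red on the left and CD25-low libraries in blue on the right. Grey lines join libraries of the same number and black bars are group means. Egr1, Egr2 and Egr3 show no overlap between groups, while the lines of Nr4a2, Nab1 and Nab2 rise for some library numbers and fall for others.

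Egr1, the most abundant Egr factor, was lower in CD25-high cells by a smaller factor. Its levels were 58.3, 16.3 and 30.8 CPM in CD25-high libraries 1, 2 and 3, against 115.0, 77.1 and 106.8 CPM in CD25-low libraries 1, 2 and 3. The groups did not overlap, but CD25-high library 1 came close to the lowest CD25-low library. The means were 35.1 ± 21.3 CPM for CD25-high, against 99.6 ± 19.9 CPM for CD25-low cells (SD, n = 3 each). The log2 fold change was -1.50 ± 0.39 (SE; 95% interval -2.38 to -0.63), with an edgeR adjusted p of 0.156, so Egr1 did not pass in the fit with the group as the only term. It passed with the replicate block (-1.67 ± 0.23, adjusted p 0.000992), and by DESeq2 (adjusted p 0.0115). Within numbers 1, 2 and 3 the log2 ratios of CD25-high over CD25-low were -0.98, -2.24 and -1.79. Leaving out CD25-high library 1 gave a log2 fold change of -2.08 and a call (edgeR adjusted p 0.0167). Libraries numbered 1 had more Egr1 than the rest, by 0.83 on the log2 scale after accounting for the group (adjusted p 0.0845). Egr1 (ENSMUSG00000038418) lies on chromosome 18 from 34859823 to 34864984, plus strand.

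Egr3 was close to the detection limit in CD25-high cells. It had 2, 1 and 3 reads in CD25-high libraries 1, 2 and 3, against 17, 47 and 48 reads in CD25-low libraries 1, 2 and 3. In CPM these are 0.113, 0.0532 and 0.169 in CD25-high and 0.93, 2.0 and 1.99 in CD25-low libraries. The groups did not overlap, and CD25-low library 1 was the lowest of its group. Summed over libraries, CD25-high cells had 6 reads and CD25-low cells 112. That is 15.3-fold more in CD25-low cells at equal depth, with a 95% exact interval of 6.83 to 42.7 that covers counting error only. A log2 fold change of -3.81 ± 0.86 (SE) was fitted, and its edgeR adjusted p was 0.0991. It passed with the replicate block (adjusted p 0.0475) and by DESeq2 (0.0167), but not with the block without pair 1, 2 or 3 (0.0857, 0.321 and 0.154). Egr3 (ENSMUSG00000033730) occupies bases 70077203 to 70082614 of chromosome 14, plus strand.

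Egr2 took a smaller share of the family's reads in every CD25-high library. It took 4.98%, 14.4% and 14.5% of the Egr1, Egr2 and Egr3 reads in CD25-high libraries 1, 2 and 3, against 26.0%, 38.4% and 33.2% in CD25-low libraries 1, 2 and 3. The highest CD25-high share (95% Wilson interval 12.0% to 17.4%) and the lowest CD25-low share (24.5% to 27.7%) lie apart. Such intervals cover counting error only. Egr1 took 85.0% to 94.8% of these reads in CD25-high and 60.0% to 73.4% in CD25-low libraries. With reads divided by exon length, Egr2 made up 6.47% to 18.3% of the family in CD25-high and 31.7% to 45.1% in CD25-low libraries.

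**Figure D2:**
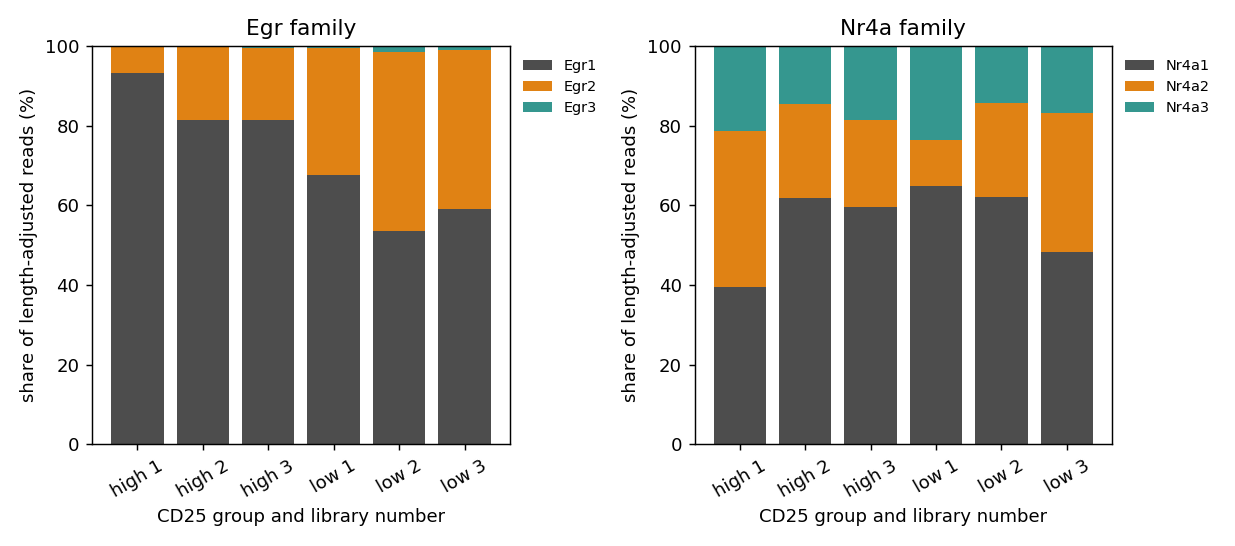
Share of length-adjusted reads (%) that each gene takes within the Egr family (left) and the Nr4a family (right), with 1 bar per library and CD25-high libraries before CD25-low ones. Egr2 fills 6.47% to 18.3% of the Egr bars in CD25-high libraries and 31.7% to 45.1% in CD25-low libraries, while the Nr4a bars show no such split by group.

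Ratios within a library do not depend on how libraries are scaled, and they were compared between Egr2 and each of the other 7 members. The log2 ratio of Egr2 to Egr1 reads was -3.11 ± 0.98 in CD25-high and -1.04 ± 0.43 in CD25-low libraries (SD, n = 3 each), a difference of -2.07. That of Egr2 to Nr4a1 was -0.96 ± 0.14 in CD25-high and 2.05 ± 0.20 in CD25-low libraries, a difference of -3.02. That of Egr2 to Nab2 was -2.52 ± 0.64 in CD25-high and 1.50 ± 0.37 in CD25-low libraries, a difference of -4.02. For 6 of the 7 partners the groups did not overlap, and the 2-sided exact permutation test gave 0.1, the smallest p that 3 against 3 libraries allow (0.117 after Benjamini-Hochberg adjustment over the 7). The exception was Egr3, where the groups overlapped. All 7 ratios share Egr2, itself lower in CD25-high cells, so the 6 are not separate results and add no support of their own. How often ratios of Egr2 to other genes separate the groups was not computed. The log2 ratio of Egr2 to Egr3 was 4.77 ± 0.34 in CD25-high and 4.93 ± 0.43 in CD25-low libraries, a difference of -0.15 (exact permutation p 0.6). This value rests on 1 to 3 Egr3 reads per CD25-high library and was -0.78 with 2 counts added to each gene in place of 0.5.

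The Nr4a factors had lower means in CD25-high cells, and 0 of the 3 passed with edgeR's quasi-likelihood test, with DESeq2 or at an unadjusted p under 0.05. Nr4a1 stood at 5.61, 6.07 and 9.81 CPM in CD25-high libraries 1, 2 and 3, against 8.97, 11.0 and 15.3 CPM in CD25-low libraries 1, 2 and 3. It was lower in the CD25-high library of every number, but the groups overlapped, since CD25-high library 3 exceeded CD25-low library 1. The log2 fold change was -0.72 ± 0.37 (SE; 95% interval -1.54 to 0.11), with an edgeR adjusted p of 0.531, and 0.26 with the replicate block. Nr4a3 stood at 5.21, 2.45 and 5.19 CPM in CD25-high libraries 1, 2 and 3, against 5.58, 4.34 and 9.06 CPM in CD25-low libraries 1, 2 and 3. The groups of Nr4a3 overlapped too, and within numbers 1, 2 and 3 the log2 ratios were -0.097, -0.83 and -0.80. The log2 fold change was -0.56 ± 0.47 (95% interval -1.62 to 0.49), with an edgeR adjusted p of 0.726.

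Nr4a2 had no common direction. It stood at 6.46, 2.66 and 4.17 CPM in CD25-high libraries 1, 2 and 3, against 1.86, 4.81 and 12.7 CPM in CD25-low libraries 1, 2 and 3. The CD25-high library was higher in number 1 and lower in numbers 2 and 3 (log2 ratios 1.80, -0.85 and -1.61). The log2 fold change was -0.55 ± 0.65 (95% interval -1.99 to 0.89), with an edgeR adjusted p of 0.822. Without CD25-low library 3 it was 0.41. Summed over the 3 receptors, CD25-high libraries had 15.9 ± 4.18 CPM and CD25-low libraries 24.6 ± 11.0 CPM (SD, n = 3 each), against 38.9 ± 21.3 and 149.0 ± 18.4 CPM for the 3 Egr genes. Nr4a1 (ENSMUSG00000023034) occupies bases 101254269 to 101274795 of chromosome 15 (plus strand), Nr4a2 (ENSMUSG00000026826) bases 57106830 to 57124003 of chromosome 2 (minus strand), and Nr4a3 (ENSMUSG00000028341) bases 48045153 to 48086447 of chromosome 4 (plus strand).

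Nab1 was the most abundant member and stood at the same mean level in both groups. It stood at 379.8, 369.0 and 339.7 CPM in CD25-high libraries 1, 2 and 3, against 346.5, 410.0 and 333.6 CPM in CD25-low libraries 1, 2 and 3. The ranges overlapped almost fully, and the means were 363 ± 20.7 and 363 ± 40.9 CPM (SD, n = 3 each). The 95% interval of its log2 fold change, -0.40 to 0.39, was the narrowest among the members (edgeR adjusted p 0.999). Its promoter window is shown because it holds 2 exact copies of the Egr site GCGTGGGCG (0.612% of all windows hold at least 1), at -141 and -109. A match to the looser GCGNGGGCG, which includes both exact copies, stood at -38, and TGACG at -123. The Nab2 window, by contrast, held no match to either form of the Egr site, to TGACG or to the CArG box. Capitals again mark the matches.
Nab1, chr1:52500399-52500698, minus strand: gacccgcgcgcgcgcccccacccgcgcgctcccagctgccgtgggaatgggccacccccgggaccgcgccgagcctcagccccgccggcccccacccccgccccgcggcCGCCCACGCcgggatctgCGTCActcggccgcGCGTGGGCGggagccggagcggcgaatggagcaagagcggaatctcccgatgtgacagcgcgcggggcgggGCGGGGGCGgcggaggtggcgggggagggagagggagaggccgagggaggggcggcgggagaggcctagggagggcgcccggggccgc

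Nab2 stood at 28.5, 14.8 and 20.3 CPM in CD25-high libraries 1, 2 and 3, against 10.7, 21.1 and 21.2 CPM in CD25-low libraries 1, 2 and 3. The highest and the lowest value both came from libraries numbered 1, and the groups overlapped. The log2 fold change was 0.26 ± 0.35 (SE; 95% interval -0.52 to 1.04), with an edgeR adjusted p of 0.847. Without both libraries numbered 1 it was -0.27. The Nab2 count is uncertain where its exons overlap genes on the opposite strand, since no strand setting is stated. The shared bases number 1050 with Gm16229 (10 to 41 reads per library), 151 with Nemp1 (894 to 1286 reads) and 40 with Stat6 (1034 to 1849 reads), beside 196 to 512 reads for Nab2 itself. Both genes lie on the minus strand, Nab2 (ENSMUSG00000025402) at bases 127660918 to 127668568 of chromosome 10 and Nab1 (ENSMUSG00000002881) at bases 52457294 to 52500679 of chromosome 1.

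Levels were compared between genes as CPM per kilobase of exon. In CD25-high cells the order was Nab1 (88.5 ± 5.06), Egr1 (7.84 ± 4.75), Nab2 (7.20 ± 2.34), Nr4a1 (2.04 ± 0.657), Nr4a2 (1.09 ± 0.471), Egr2 (1.09 ± 0.398), Nr4a3 (0.716 ± 0.265) and Egr3 (0.0254 ± 0.0132; SD, n = 3). The ranges of Egr1 and Nab2 overlapped there, and so did those of Nr4a2 with Egr2 and of Egr2 with Nr4a3. In CD25-low cells Egr2, at 14.2 ± 1.99 CPM per kilobase, stood directly behind Egr1 at 22.2 ± 4.45 and above Nab2 at 6.01 ± 2.05, with no overlap of its range with either. Nab2 and Nr4a1 (3.35 ± 0.921) overlapped in CD25-low cells, as did Nr4a1 with Nr4a2 (1.59 ± 1.39) and Nr4a2 with Nr4a3 (1.06 ± 0.408). Egr3 was lowest there too (0.372 ± 0.139). Egr2 thus ranked below Nab2, Nr4a1 and Nr4a2 in CD25-high cells and above all 3 in CD25-low cells, with Nr4a2 and Egr2 not separable in CD25-high cells.

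Of the 8 members, Egr2 fell and 7 did not pass in the fit with the group as the only term, where 0.655% of all tested genes were called (0.501% lower and 0.154% higher). With the replicate block Egr1, Egr2 and Egr3 fell, against 2.9% of all tested genes that fell, 1.73% that rose and 4.63% in either direction, and the 3 Nr4a and 2 Nab genes did not pass. DESeq2 called the same 3 genes, against 2.44% called in either direction, 1.69% lower and 0.752% higher, of the 15429 genes it gave a p-value. Genes that its own filter left without an adjusted p count there as not called, so these shares may be too low. The libraries of the groups did not overlap for 3 members, all lower in CD25-high cells, against 16.9% of all tested genes in either direction and 9.54% in that one. Egr3 counts among these 3 and among the 3 called with the block and by DESeq2, although it entered the test through CD25-low libraries alone. The median log2 fold change of the members was -0.64, and that of all tested genes 0.0091.

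**Figure D3:**
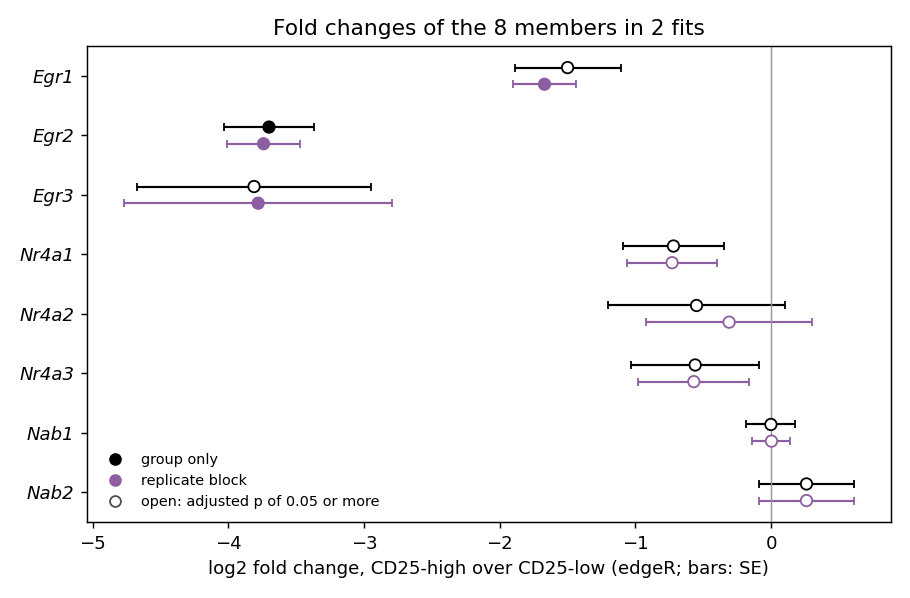
Log2 fold change of each member, CD25-high over CD25-low, with its SE, from edgeR with the group as the only term (black) and with the replicate number as a block (purple). Filled points have an adjusted p under 0.05 over all tested genes: Egr2 in the first fit, and Egr1, Egr2 and Egr3 in the second.

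Among 16 tested factors that carry receptor signals to these genes, Elk4 fell and 15 did not pass (median log2 fold change -0.05). The edgeR fit with the group alone called 0.655% of all tested genes. Elk4 joins serum response factor at CArG boxes. It stood at 96.3, 144.6 and 123.9 CPM in CD25-high libraries 1, 2 and 3, against 234.2, 312.5 and 307.6 CPM in CD25-low libraries 1, 2 and 3. The groups lay clearly apart (log2 fold change -1.23 ± 0.22, edgeR adjusted p 0.0364). Among fits with a library left out, it remained called only without CD25-low library 1 (edgeR adjusted p up to 0.215 in the others). Elk4 shares 84 exonic bases with Mfsd4a on the opposite strand and 104 with Gm29103 on the same strand, so its count is uncertain to that extent. Of 5 relatives and partners, Rxra and Rxrb had a row and were tested, and Rxrb did not pass (-0.39 ± 0.64, edgeR adjusted p 0.876). Rxra, a retinoid receptor that can pair with Nr4a1 and Nr4a2, rose, with 6.18, 14.4 and 13.1 CPM in CD25-high against 1.64, 2.38 and 2.44 CPM in CD25-low libraries (2.37 ± 0.45, edgeR adjusted p 0.0493). This call was kept only without CD25-high library 1 among the 6 fits that leave out a library (highest adjusted p 0.239), and it was also lost with limma voom (0.0838) and with library size as the only scaling (0.0553).

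Other genes induced through the receptor had no common direction. Of 28 tested, 0 passed in the edgeR fit with the group alone, 9 had an unadjusted p under 0.05 and DESeq2 called 3, namely Jun (edgeR log2 fold change 1.54), Cd200 and Bhlhe40. Under an unadjusted p of 0.05 lay 11.1% of all tested genes. Of the 28, 14 had a log2 fold change above 0 and 14 below, and the median was 0.089. With the replicate block Myc, Irf4 and Bhlhe40 rose and Zfp36 and Cd83 fell, and 23 did not pass. That block called 4.63% of all tested genes, and DESeq2 called 2.44% of its genes. Myc, a regulator of growth and metabolism, stood highest in the libraries numbered 1, with 284.0, 49.7 and 75.7 CPM in CD25-high against 90.6, 33.3 and 56.2 CPM in CD25-low libraries. Cd83 had 34, 3 and 0 reads in CD25-high libraries 1, 2 and 3, so it passed the filter through the CD25-low group. The blocked log2 fold changes were 0.89 for Myc, -0.67 for Zfp36 and -3.56 for Cd83. These genes and Jun were named after their values were seen, apart from Bhlhe40. Bhlhe40, a transcription factor of effector T cells, had 113 ± 20.1 CPM in CD25-high cells, against 46.8 ± 19.1 CPM in their CD25-low counterparts (SD, n = 3 each; log2 fold change 1.27 ± 0.30; edgeR adjusted p 0.118, or 0.00125 under the block). Irf4, whose level tracks receptor signal strength, had 276 ± 123 CPM in CD25-high cells, against 149 ± 29.3 CPM in CD25-low cells (0.89 ± 0.30, edgeR adjusted p 0.301, and 0.0176 with the block). Cd200, an inhibitory ligand, had 12.6, 13.0 and 14.7 CPM in CD25-high against 31.3, 37.2 and 18.7 CPM in CD25-low libraries. Its log2 fold change was -1.11 ± 0.30 (edgeR adjusted p 0.176, or 0.0526 under the block). It passed by DESeq2 (adjusted p 0.0307). It also passed with the block without pair 3 (adjusted p 0.00777), a fit on few libraries that is no check on stability. Its groups did not overlap, with CD25-low library 3 nearest to the CD25-high ones.

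Genes described as downstream of the members had log2 fold changes of both signs. Of 15 tested genes reported to depend on Egr2 or Egr3 in T cells, Id3 fell and 14 did not pass. Their median log2 fold change was -0.37, with 7 above 0 and 8 below. By edgeR, 7 of the 15 had an unadjusted p under 0.05, all lower except Fasl, which was named after its values were seen. DESeq2 called 2, Id3 and Bcl6. Over all tested genes, edgeR called 0.655% with the group alone and 4.63% with the block. An unadjusted p under 0.05 was found for 11.1% of them, and DESeq2 called 2.44% of its genes. Id3, an inhibitor of E-protein factors and a known Egr target, had 0.283, 0.426 and 0.0564 CPM in CD25-high against 3.45, 5.32 and 10.8 CPM in CD25-low libraries. The groups lay far apart (-4.64 ± 0.77, edgeR adjusted p 0.0267), and the call held without either library numbered 1 and was lost without any of the other 4 (edgeR adjusted p up to 0.148). With limma voom Id3 did not pass (-4.71 ± 1.18, adjusted p 0.129). Id3 had 5, 8 and 1 reads in CD25-high libraries 1, 2 and 3, so it passed the filter through CD25-low libraries alone. Bcl6, the defining factor of follicular helper cells, had 15.1, 2.02 and 1.07 CPM in CD25-high against 174.4, 67.3 and 71.3 CPM in CD25-low libraries (-4.11 ± 0.85, edgeR adjusted p 0.0715, and 2.03e-05 with the block). It was called without CD25-high library 1 (edgeR adjusted p 0.000974). Libraries numbered 1 were the highest of each group for Bcl6. With the block Bcl6, Dgka and Cdkn1b fell as well, 3 genes named after their values were seen, 0 rose and 11 did not pass. Cdkn1b, an inhibitor of cyclin-dependent kinases, had a log2 fold change of -0.91 ± 0.39 (edgeR adjusted p 0.431, and 0.0292 with the block). Dgka, a brake on diacylglycerol signalling, had 253 ± 78.7 CPM in CD25-high cells, against 460 ± 142 CPM in CD25-low cells (-0.86 ± 0.29, edgeR adjusted p 0.302, and 0.00305 with the block). Lag3 (0.15 ± 0.49) and Sema7a (0.062 ± 0.26), also chosen after their values were seen, had adjusted p-values of 0.942 and 0.958.

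Of 12 tested genes reported downstream of the Nr4a receptors, Tox2 and Ikzf2 fell and 10 did not pass (median log2 fold change -0.39). Of the 12, 4 had a log2 fold change above 0 and 8 below. By edgeR, 6 had an unadjusted p under 0.05 (11.1% of all tested genes had one). DESeq2 called 4, against 2.44% of its genes. The share called over all tested genes was 0.655% with the group alone and 4.63% with the block. Tox2, an HMG-box factor, had 1.70, 3.41 and 0.677 CPM in CD25-high against 82.7, 75.0 and 85.1 CPM in CD25-low libraries (-5.38 ± 0.48, edgeR adjusted p 0.00103). Ikzf2, which encodes Helios, had 114.2, 93.9 and 88.2 CPM in CD25-high against 312.8, 196.8 and 271.9 CPM in CD25-low libraries (-1.40 ± 0.22, edgeR adjusted p 0.0241). Its call held when CD25-high library 1 was left out, or the second CD25-low library, and was lost when any of the other 4 was (edgeR adjusted p up to 0.193). Tox had 140.3, 59.7 and 81.2 CPM in CD25-high against 419.8, 219.9 and 273.6 CPM in CD25-low libraries (-1.70 ± 0.34, edgeR adjusted p 0.0613, or 3.5e-05 under the block), and it was called without CD25-high library 1 (0.0119). Havcr2, an inhibitory receptor gene, had 116.5, 239.4 and 282.5 CPM in CD25-high against 11.9, 70.3 and 56.9 CPM in CD25-low libraries (2.20 ± 0.55, edgeR adjusted p 0.134, and 9.46e-05 with the block). In the blocked fit Tox fell and Havcr2 rose in addition, both named after their values were seen, and 8 did not pass. Exons on the opposite strand overlap Tox (260 bases, Gm11802), Jun (232, Junos), Ikzf2 (144, Gm29114), Bhlhe40 (118, 0610040F04Rik) and Dgka (105, Pmel). These counts are uncertain to that extent.

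Stress genes, which tissue handling can induce together with immediate early genes, had a median log2 fold change of 0.51 over 11 tested. Of these 0 passed in the edgeR fit with the group alone or by DESeq2, 3 had an unadjusted p under 0.05 (11.1% of all tested genes had one), and Hsp90aa1 rose with the block (0.81 ± 0.27, edgeR adjusted p 0.29, and 0.00499 with the block), ahead of Hsph1 (0.51 ± 0.21, 0.395, and 0.0591 with the block). The block called 4.63% of all tested genes. Libraries numbered 1 also had more Hsp90aa1, by 0.69 on the log2 scale after accounting for the group (adjusted p 0.0126). Their part in the Egr result was not tested.

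**Figure D4:**
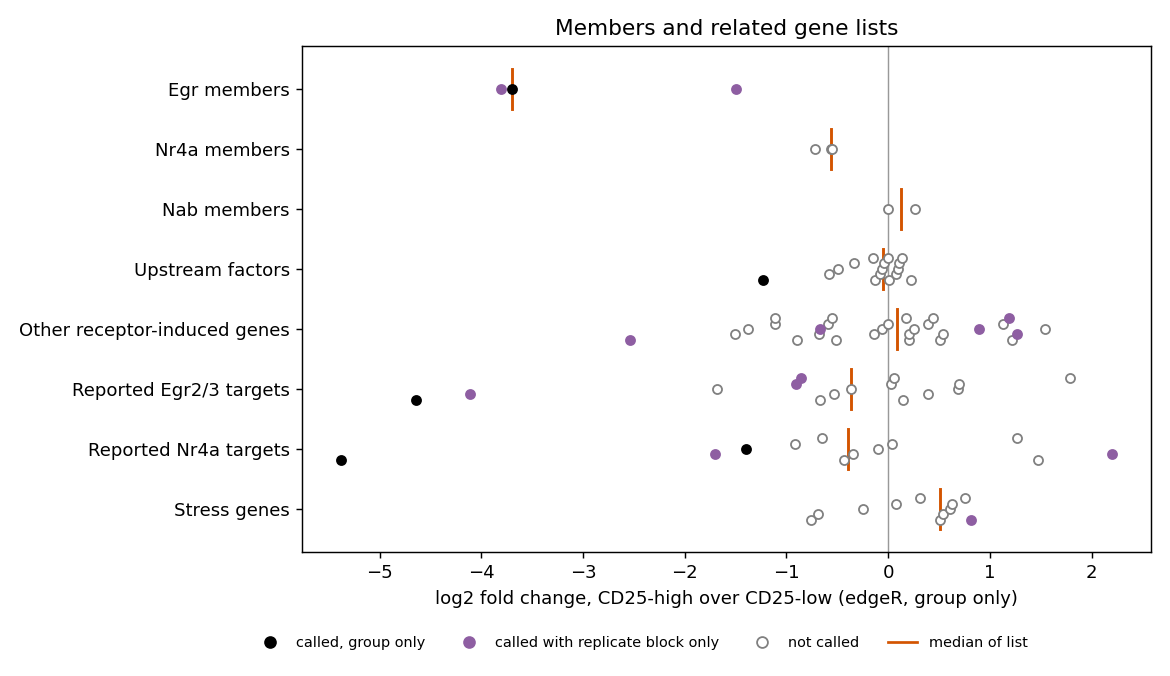
Log2 fold changes, CD25-high over CD25-low, from edgeR with the group as the only term, for the members and for 5 related gene lists; each point is a tested gene, spread vertically within its row for legibility. Filled black points were called in that fit, purple points with the replicate block alone, and orange bars are list medians, which lie at -3.70 for the Egr, -0.56 for the Nr4a and 0.13 for the Nab genes.

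The genes whose pattern over the 6 libraries was most like that of Egr2 were Rgs10, Nav2 and Sesn3, among tested genes with a mean of at least 5 CPM. Likeness was the mean absolute difference of log2 CPM after centring each gene on its mean over the 6 libraries, which was 0.329 for Rgs10, 0.401 for Nav2 and 0.453 for Sesn3. Rgs10, a regulator of G protein signalling, had 1.42, 1.54 and 3.55 CPM in CD25-high against 48.9, 31.3 and 26.6 CPM in CD25-low libraries. Sesn3, a stress-responsive inhibitor of mTORC1, had 4.53, 6.60 and 4.17 CPM in CD25-high against 54.1, 51.6 and 44.7 CPM in CD25-low libraries. Nav2 had 6.58, 6.39 and 6.60 CPM in CD25-high against 54.5, 59.7 and 49.9 CPM in CD25-low libraries, and shares 295 exonic bases with Gm2788 on its own strand, so its count is uncertain to that extent. All 3 share with Egr2 the low level in every CD25-high library, which follows from how they were chosen. This likeness is a description of these 6 libraries alone.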

How the data were processed

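RNA was sequenced from 3 CD25-high and 3 CD25-low libraries. Amplification used the NuGEN Ovation RNA-Seq System v2, per the labels' protocols. The authors deposited raw counts of reads per Ensembl gene. The submitters' processing notes list mm10, hg19, Novoalign and DESeq2, with no role or version. No label or file header used here states the counting program, the annotation or the strand setting. The smallest row total is 10. Names and exon lengths came from GENCODE release M21 (GRCm38), which matched 15169 genes, and 276 had no match.

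Counts were tested with edgeR 4.0.16 (R 4.3.3), using its quasi-likelihood F test, TMM factors, filterByExpr with a minimum count of 10 and a minimum total of 15, the group as the only term and Benjamini-Hochberg adjustment over all 12987 tested genes, calling at 0.05. SE was taken as the size of the log2 fold change divided by the root of F. Fold changes are CD25-high over CD25-low. The fits were also run on simulated counts. Those counts held no effect of the replicate number, so that run does not bear on the use of the block here. Deviations from group means, over the 2000 most variable genes, correlated at 0.341, 0.187 and 0.157 for same-numbered libraries 1, 2 and 3, all above the limit of 0.1, and at -0.256 to 0.133 for others. CD25-high library 2 with CD25-low library 3 (0.133) also lay above that limit, so the limit alone does not single out same-numbered libraries. On this evidence from the data alone, same-numbered libraries were treated as pairs, and a fit with the number as a block is given where it changes a call. Alternatives were DESeq2 1.42.0, limma 3.58.1 voom, other factors and filters, and each library left out.

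The members and gene lists were chosen with earlier results of these data known. Named genes are the members, up to 3 called genes per direction of each list by smallest p (for lists without a call, the first 2 genes by p), the 2 most abundant markers of each other cell type, Il2ra, and the 3 genes most like Egr2.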

Additional observations from a re-analysis of the deposited data

How the results depend on the processing

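Egr2 kept its direction and its call in every alternative run (log2 fold change -3.53 to -4.03 with a library left out). With DESeq2 or the replicate block 3 members were called, and 2 (Egr1 and Egr2) with the block without pair 1, 2 or 3 or without both libraries numbered 1; with a library left out it was 1 to 2. These fits without pairs or without both libraries numbered 1 were added after the data were seen. Block fits without a pair rest on few libraries. Their adjusted p for Egr2 was 0.000423, 6.01e-15 and 5.23e-10 without pair 1, 2 and 3, against 1.54e-05 with all pairs. Since p could shrink as libraries were removed, these calls are no check on stability. Over all genes, 85 were called in the fit with the group alone, 601 with the replicate block, 376 with DESeq2, 461, 486 and 536 with the block without pair 1, 2 and 3, 380 without both libraries numbered 1, and 22 to 130 with a library left out. The Egr3 row did not pass the stricter filter, so that setting gave no value for it. Egr1 and Egr3 were called with the block and with DESeq2 but not with voom, other factors or other filters.

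Some directions turned. Nr4a2 had log2 fold changes of 0.036 and 0.46 with the block without pair 2 and 3, and -0.99 to 0.41 with a library left out. Nab2 had -0.29 with the block without pair 1, -0.27 without both libraries numbered 1, and -0.011 to 0.47 with a library left out. Nab1 lay near 0, at 0.0021 with the block, 0.0081 with DESeq2, 0.0017 with voom, 0.01 with RLE factors, 0.0017 with the stricter filter, 0.07 with the block without pair 2, and -0.06 to 0.092 with a library left out. The log2 ratio of Egr2 to Egr3 differed by -0.33 to 0.09 with a library left out. Among marker genes Cr2 had 0.34 with the block without pair 3 (-1.16 to 0.40 with a library left out), Alas2 -0.0021 and -0.22 with the block without pair 2 and 3 (-0.19 to 0.25), and Eomes -1.33 to 3.21 with a library left out. The cause of these turns was not tested.

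The counts of called genes on the related lists were small and moved with the setting. Relatives and partners had 0 with voom or library size only, and 0 to 1 with a library left out. Upstream factors had 2 with the block without pair 2, and 0 to 1. Other receptor-induced genes had 5 with the block, 3 with DESeq2, 2, 4 and 5 with the block without pair 1, 2 and 3, and 2 without both libraries numbered 1. Reported Egr2 or Egr3 targets had 4 with the block, 2 with DESeq2, 3 with the block without any pair or without both libraries numbered 1, and 0 to 2 with a library left out. Reported Nr4a targets had 4 with the block, with DESeq2 and without both libraries numbered 1, 4, 6 and 6 with the block without pair 1, 2 and 3, and 1 to 3 with a library left out. Stress genes had 1 with the block, 2, 1 and 1 with the block without pair 1, 2 and 3, and 1 without both libraries numbered 1. Depth limits Egr3 most, with 1 to 3 reads per CD25-high library.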
